A study of Homo sapiens with 7 samples.

Results

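The comparison set 2 sublines at a second derivation step against 1 subline at a first step, all recovered from mice. GS689.Li, from the liver, and GS694.LAd, from the left adrenal, were grown out after JD549.Ki cells had been injected intravenously, and JD549.Ki is itself a PC-3 derivative, named in the pattern of the in vivo lines but not described further in the labels, so that GS689.Li and GS694.LAd are taken as second-passage lines from its name. GS672.Ug was grown out from urogenital tissue after PC-3 cells had been injected intravenously. The noise was read from 2 arrays of TEM4-18, a PC-3 derivative selected in culture for crossing a layer of lung microvascular endothelial cells. These are 5 of the 7 arrays of the series, and each in vivo line has 1 array of 1 culture. All lines carry luciferase, were grown untreated in the same medium with serum, and descend from PC-3, an established line from a prostate carcinoma metastasis. The labels conflict in places: the description of GS694.LAd calls that line JD549.Ki, that of GS689.Li leaves the name blank, and the source name of JD1203.Lu, an array used for the offset, the filter and the fit of all 7, reads JD549.Ki. The cell line field was followed, and a mix-up of arrays was not tested. By the cell line field, none of the 7 arrays is of the parent lines of these sublines (JD549.Ki and unselected PC-3). The number of passages, the organ of recovery, the parent line and the individual culture differ together between both sides, so they cannot be told apart. GS689.Li and GS694.LAd together are called the passaged lines below. Paired values are in the order GS689.Li and GS694.LAd. Both differences below share the single GS672.Ug array, which makes part of their likeness automatic.

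Serial passage through mice is a standard way to derive tumour sublines. Cells that colonise an organ are returned to culture, injected again, and recovered from a new site. Lines made this way can differ from their parent in secreted growth factors, proteases, adhesion molecules and chromosome content. Prostate cancer cells such as PC-3 lack androgen dependence and are used as a model of advanced disease. The lines were measured after culture, so the arrays show the cells as they were outside the mouse. Whether a difference was present before injection, or arose in the mouse or in culture, was not tested.

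A gene was counted when both GS689.Li and GS694.LAd lay at least 2-fold from GS672.Ug on the same side. Differences are in log2 of the MAS5 intensity plus an offset of 46.942, which understates the change of weak genes, so 2-fold is a difference of 1. Of 13640 genes tested, 377 (2.76%) were higher in both lines and 187 (1.37%) were lower in both, 564 (4.13%) in all. For comparison, 573 genes (4.20%) lay at least 2-fold apart between the TEM4-18 duplicates, and 642 (4.71%) between GS689.Li and GS694.LAd. Asking in addition that the smaller of both differences exceed the gap between the duplicates of that gene left 531 genes (3.89%), 349 higher and 182 lower. Array against array, as for the duplicates, GS689.Li alone lay 2-fold from GS672.Ug for 1083 genes and GS694.LAd alone for 1161. Only 9 genes lay 2-fold from GS672.Ug in both lines on opposite sides.

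The size of the differences and their place on the signal scale set the comparison apart from the duplicates more than the count over both lines did. That count, also at the larger folds below, asks for 2 arrays at once, while the duplicates are 1 pair. Both lines lay at least 4-fold from GS672.Ug for 63 genes that were higher and 36 that were lower, against 54 genes between the duplicates. At 8-fold there were 7 higher and 15 lower genes, against 0 between the duplicates. Between GS689.Li and GS694.LAd themselves 94 genes lay at least 4-fold apart and 7 at least 8-fold. With genes split by mean signal into 5 equal bins, 122 of 8184 genes in the upper 3 bins were counted, 74 higher and 48 lower. In those bins 2 genes lay 2-fold apart between the duplicates and 31 between GS689.Li and GS694.LAd. In the lowest bin the order was the other way, with 11.5% of genes counted and 18.3% apart between the duplicates. Of the 377 higher genes, 55 had a GS672.Ug value under the offset, and of the 187 lower genes, 9 had both passaged lines under it. The root mean square difference was 0.614 for GS689.Li and 0.621 for GS694.LAd, each against GS672.Ug, 0.469 between those lines and 0.415 between the duplicates. The median difference over all genes was 0.009. Just inside the 2-fold line, 94 genes had a smaller difference from 1 to 1.1, and just outside it 165 genes had one from 0.9 to 1.

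**Figure D1:**
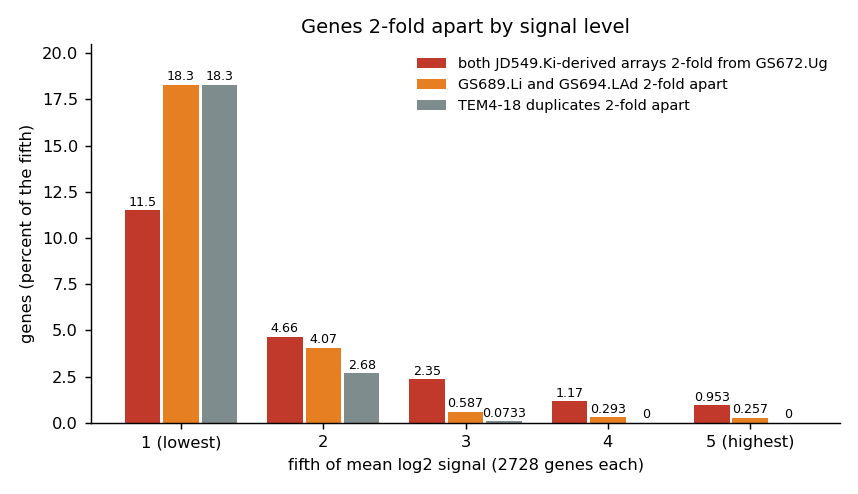
The bars give the percent of genes at least 2-fold apart within each of 5 bins of mean log2 signal (2728 genes a bin), for both JD549.Ki-derived arrays against GS672.Ug, for GS689.Li against GS694.LAd, and for the TEM4-18 duplicates. In the upper 3 bins, from low to high signal, 2.35%, 1.17% and 0.953% of genes were counted, while the duplicates gave 0.0733%, 0 and 0.

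A test across all genes was run with limma, with GS689.Li and GS694.LAd as 1 group, the TEM4-18 duplicates as another and GS672.Ug alone. The spread comes from both pairs, with 2 residual degrees of freedom, and the lone GS672.Ug array is assumed to vary like them. At a Benjamini-Hochberg adjusted p under 0.05, 533 genes (3.91%) rose and 469 (3.44%) fell in the JD549.Ki-derived lines. Of these 1002 genes, 262 were also counted by size, which is 26.1% of the genes that passed limma and 46.5% of the genes counted. The words rose and fell below mark genes that passed this test, and higher and lower mark values alone. The call rests on how the spread is pooled, since 35 genes passed when all 7 arrays entered the fit, and 0 passed without the intensity trend (2616 at an unadjusted p under 0.05). With each array centred on its median, 406 genes rose and 554 fell, so the near balance of both directions depends on the scaling.

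**Figure D2:**
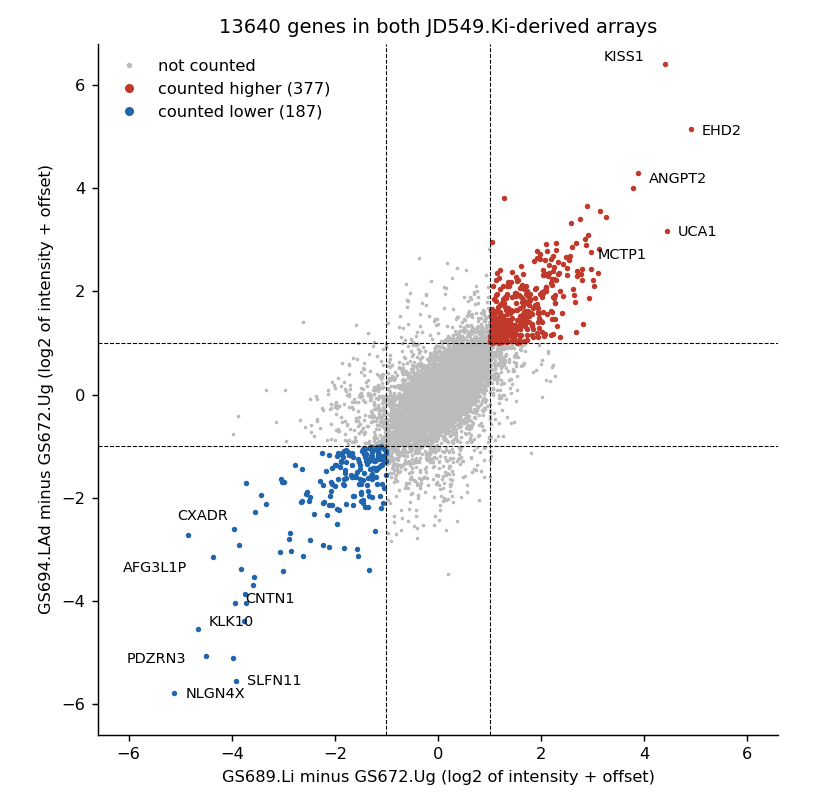
Each point is 1 of 13640 genes, with GS689.Li minus GS672.Ug on the horizontal axis and GS694.LAd minus GS672.Ug on the vertical axis, both in log2 of intensity plus offset; dashed lines mark 2-fold. The 377 genes counted higher and the 187 counted lower sit in opposite corners, with KISS1 and EHD2 at one end and NLGN4X at the other.

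The largest differences were nearly on-off. EHD2, an ATPase that binds the membrane at caveolae, had intensities of 3584 in GS689.Li and 4247 in GS694.LAd, against 74.1 in GS672.Ug, while the TEM4-18 duplicates read 43.4 and 54.9. It rose by 5.03 ± 0.36 (log2, SE from limma, adjusted p = 7.17e-04). Its other probe sets were also higher in both lines, by at least 1.51 in one and 2.41 in the other. KISS1, which encodes the kisspeptin precursor and was first described as a metastasis suppressor, read 1827 and 7436 in GS689.Li and GS694.LAd, against 41.1 in GS672.Ug and 44.8 and 64.9 in TEM4-18. It rose by 5.41 ± 0.71 (adjusted p = 0.00672). The passaged lines thus held both genes well above GS672.Ug and TEM4-18, though KISS1 differed between them. Outside the comparison, the lung line JD1203.Lu read 611.9 for EHD2 and 269.9 for KISS1, above GS672.Ug and TEM4-18 too. The lymph node line GS683.LALN read 59.4 and 33.4. In the other direction, NLGN4X, a neuroligin that acts in synaptic adhesion, read 38.9 and 6.9 against 2930 in GS672.Ug, and fell by 5.45 ± 0.88 (adjusted p = 0.0136). KLK10, a kallikrein-related peptidase, read 15.3 and 19.9 against 1526 in GS672.Ug, with 15.8 and 19.0 in TEM4-18, and its difference was -4.61 ± 0.92 (adjusted p = 0.0257). For these lower genes the TEM4-18 arrays lay beside the passaged lines and GS672.Ug stood alone.

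These 4 genes lie on chromosomes 19, 1, X and 19. The 250 bases before the first transcription start that RefSeq lists for each (GRCh38.p14) are given 5′ to 3′. They are shown because the genes carry the largest differences each way, by the smaller of both lines' differences. Capitals mark CG dinucleotides, the sites of DNA methylation. No methylation was measured here. The windows are chr19:47713172-47713421, plus strand for EHD2, chr1:204196492-204196741, minus strand for KISS1, chrX:6228868-6229117, minus strand for NLGN4X and chr19:51019862-51020111, minus strand for KLK10. RefSeq lists 2 starts for NLGN4X and 2 for KLK10.
EHD2: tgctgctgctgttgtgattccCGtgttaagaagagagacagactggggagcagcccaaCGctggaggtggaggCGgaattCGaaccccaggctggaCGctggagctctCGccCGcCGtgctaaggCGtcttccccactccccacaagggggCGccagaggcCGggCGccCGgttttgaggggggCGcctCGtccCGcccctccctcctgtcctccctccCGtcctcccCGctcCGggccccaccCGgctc
KISS1: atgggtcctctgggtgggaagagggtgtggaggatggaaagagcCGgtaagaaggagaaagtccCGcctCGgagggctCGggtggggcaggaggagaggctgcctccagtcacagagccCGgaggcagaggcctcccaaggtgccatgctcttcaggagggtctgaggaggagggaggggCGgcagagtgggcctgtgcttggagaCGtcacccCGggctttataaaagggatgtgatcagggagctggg
NLGN4X: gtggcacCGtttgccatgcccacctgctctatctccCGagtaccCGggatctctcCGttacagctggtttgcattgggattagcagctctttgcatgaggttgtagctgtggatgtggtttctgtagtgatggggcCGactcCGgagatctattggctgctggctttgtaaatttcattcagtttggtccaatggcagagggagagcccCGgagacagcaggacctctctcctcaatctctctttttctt
KLK10: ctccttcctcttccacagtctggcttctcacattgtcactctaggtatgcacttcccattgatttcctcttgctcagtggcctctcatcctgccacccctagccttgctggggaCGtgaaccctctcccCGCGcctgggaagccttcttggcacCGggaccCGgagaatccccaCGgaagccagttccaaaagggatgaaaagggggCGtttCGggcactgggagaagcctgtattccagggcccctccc
The EHD2 window holds 20 CG, that of KISS1 holds 8, that of NLGN4X holds 7 and that of KLK10 holds 8.

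Over all genes tested with such a window the median was 20 CG. It was 16 over 280 genes counted higher and 15 over 143 counted lower. Weak genes have fewer CG (median 11 in the lowest signal bin). In the upper 4 bins the median was 20 over 126 higher genes, 14 over 70 lower genes and 21 over the genes not counted. In the lowest signal bin the order was the other way, with medians of 13 for higher and 16 for lower genes. These are descriptions.

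The other genes of largest difference were a mixed group. Among those that rose, ANGPT2, a ligand of the TIE2 receptor on blood vessels, read 788.3 and 1071 against 9.6 in GS672.Ug. ZNF140, a KRAB zinc finger repressor, read 662.1 and 777.6 against 4.4. NPTX1, a neuronal pentraxin, read 5241 and 7024 against 553.5 and rose by 3.35 ± 0.28 (adjusted p = 0.00124). LRCH2, CHST1 (a keratan sulfate sulfotransferase), SCARA5 (a ferritin receptor) and the long noncoding RNA UCA1 rose as well. MCTP1, a calcium-binding membrane protein, had the lowest adjusted p of the fit, and it was strong everywhere. It read 16596 and 16886 in GS689.Li and GS694.LAd, against 2215 in GS672.Ug and 2088 and 1988 in TEM4-18, a rise of 2.89 ± 0.13 (adjusted p = 1.48e-04). CTSB, the lysosomal protease cathepsin B, read 27606 and 27739 against 6460, a rise of 2.09 ± 0.12 (adjusted p = 5.69e-04), and its 4 other probe sets over the signal filter were counted the same way.

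Among the genes that fell, CNTN1, a neural adhesion protein, read 265.6 and 245.9 against 4769 in GS672.Ug. CHRDL1, a secreted BMP antagonist, read 170.6 and 52.8 against 3380. SLFN11, known for sensitising cells to DNA-damaging drugs, read 176.5 and 24.3 against 3322 and fell by 4.74 ± 0.62 (adjusted p = 0.00672). DHRS2, a short-chain dehydrogenase, read 358.3 and 213.9 against 5441. PDZRN3, GPR158 and AUTS2 read between 5.8 and 34.3 in the passaged lines, against 1789, 998.9 and 817.9 in GS672.Ug. AK4, a mitochondrial adenylate kinase, read 238.2 and 216.2 against 3367 and fell by 3.64 ± 0.25 (adjusted p = 7.01e-04). For AK4 the duplicates of TEM4-18, at 1751 and 2337, were on the side of GS672.Ug. The passaged lines and GS672.Ug did not overlap at any of these genes, by construction of the count.

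**Figure D3:**
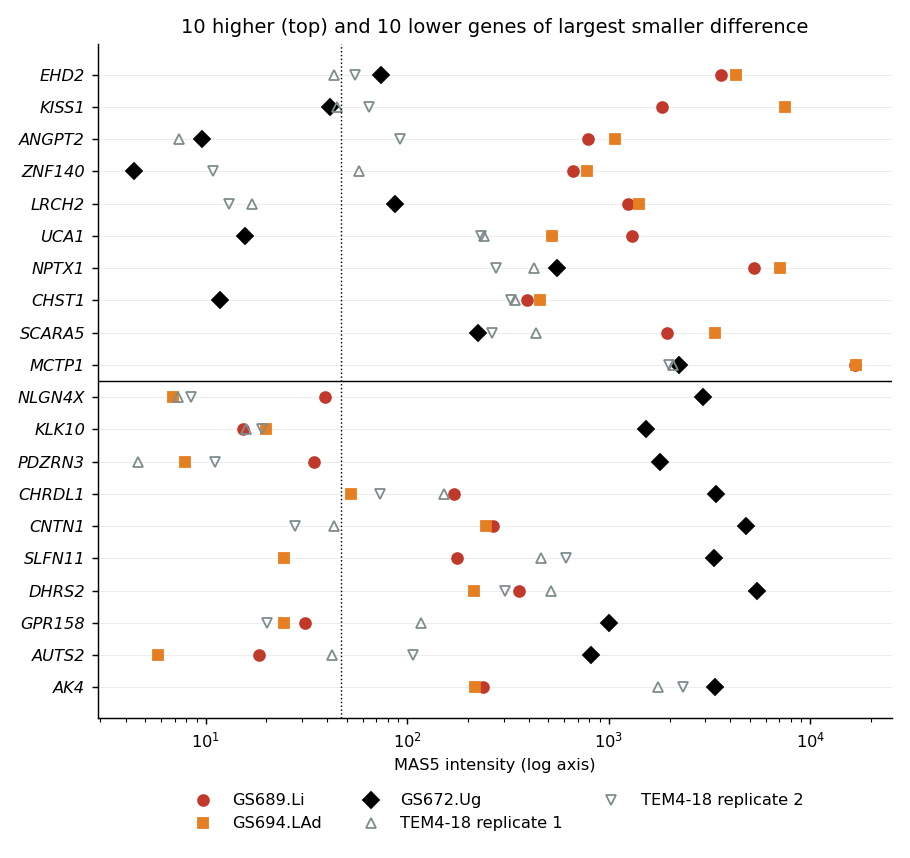
MAS5 intensity (log axis) in GS689.Li, GS694.LAd, GS672.Ug and both TEM4-18 arrays for the 10 higher genes (top) and 10 lower genes of largest smaller difference; the dotted line is the offset of 46.942. Each gene's passaged lines lie together on one side of GS672.Ug, and the TEM4-18 arrays lie with GS672.Ug for EHD2 and MCTP1 and with the passaged lines for NLGN4X and KLK10.

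TEM4-18 was not part of the 2-fold rule, though its arrays entered the signal filter, and its level shows which side of a difference is shared with another culture. Among the 377 higher genes, the mean of TEM4-18 lay within 2-fold of GS672.Ug alone for 150, within 2-fold of both passaged lines alone for 96, within 2-fold of all for 85 and of neither for 46. Among the 187 lower genes these numbers were 56, 68, 28 and 35. TEM4-18 lay nearer to GS672.Ug for 55.2% of the higher genes and 38.5% of the lower ones. That split depends on the settings. It was 62.7% of the higher and 30.9% of the lower genes with the filter on the 3 compared arrays alone, and 46.8% and 46.3% after median centring. Higher genes with TEM4-18 beside GS672.Ug included EHD2, KISS1, ANGPT2 and NPTX1. Higher genes with TEM4-18 beside the passaged lines included CHST1, SUGCT, FAM81A, CALHM2 and ZNF585A. CALHM2 read 1231 and 1197 against 179.8 in GS672.Ug, with 955.9 and 850.5 in TEM4-18. Among lower genes with TEM4-18 beside GS672.Ug were the imprinted PEG3 (134.8 and 145.7 against 1299, TEM4-18 794.8 and 652.9), AFG3L1P and INKA1. PSMB8, an immunoproteasome subunit, was of the same kind, at 72.3 and 256.2 against 1794 in GS672.Ug and 2077 and 2018 in TEM4-18 (-3.28 ± 0.48, adjusted p = 0.00932).

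Each of 33 gene lists is described by its counts beside the 4.13% counted over all genes. By limma 3.91% of all genes rose and 3.44% fell, so a short list holds few calls either way at those shares. Of 26 tested genes for cytokines, chemokines and their receptors, 7 were counted higher and 0 lower (26.9%), 5 rose and 0 fell, and the median difference was 0.316 (0.361 in GS689.Li and 0.193 in GS694.LAd). IL1B, the proinflammatory interleukin, read 11551 and 19310 against 3157 in GS672.Ug, with 755.3 and 633.6 in TEM4-18, and rose by 2.23 (adjusted p = 0.00571). CXCL8, the neutrophil chemokine interleukin-8, read 8008 and 8916 against 2135 (adjusted p = 0.00648). CXCL1, which signals through the same receptor CXCR2, read 3202 and 3591 against 918.5 (adjusted p = 0.00761). CXCL12, the ligand of CXCR4, read 1984 and 1065 against 275.1, yet 2098 and 2655 in TEM4-18. The receptor gene IL7R rose as well, and IL32 and CSF3 were counted higher without passing the test (adjusted p = 0.109 and 0.0818). Chemokines of the same cluster did not all follow, since CXCL5 read 1182 and 478.1 against 1636 and CXCL3 read 343.1 and 239.8 against 318.8.

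CXCL1 and CXCL8 are textbook targets of NF-kappaB, so their promoter windows are shown with that of IL1B. Capitals mark GGAATTTCC or its reverse complement GGAAATTCC, a form of the kappaB site. The windows are chr4:73869143-73869392, plus strand for CXCL1, chr4:73740319-73740568, plus strand for CXCL8 and chr2:112836780-112837029, minus strand for IL1B, from RefSeq (GRCh38.p14).
CXCL1: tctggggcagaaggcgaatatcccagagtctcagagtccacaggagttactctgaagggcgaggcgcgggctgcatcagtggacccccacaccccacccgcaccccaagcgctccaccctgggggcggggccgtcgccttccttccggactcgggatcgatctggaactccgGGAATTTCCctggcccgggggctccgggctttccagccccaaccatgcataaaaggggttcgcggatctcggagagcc
CXCL8: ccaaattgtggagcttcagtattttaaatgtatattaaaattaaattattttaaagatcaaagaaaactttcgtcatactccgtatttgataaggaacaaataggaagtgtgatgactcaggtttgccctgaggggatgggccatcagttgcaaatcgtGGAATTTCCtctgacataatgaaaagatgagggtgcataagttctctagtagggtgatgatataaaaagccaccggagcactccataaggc
IL1B: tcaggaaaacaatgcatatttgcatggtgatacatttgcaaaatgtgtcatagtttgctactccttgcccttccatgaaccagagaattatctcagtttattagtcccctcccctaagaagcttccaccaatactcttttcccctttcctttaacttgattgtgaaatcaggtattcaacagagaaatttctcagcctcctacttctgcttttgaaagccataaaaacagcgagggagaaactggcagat
The 9 letters end 69 bases before the start of CXCL1 and 82 bases before that of CXCL8, and they are not in the window of IL1B. They occur in 46 of 10996 tested genes with a window (0.42%), in 6 of 19 genes of the cytokine list (31.58%), namely CXCL1, CXCL2, CXCL3, CXCL5, CXCL6 and CXCL8, and in 2 of 280 genes counted higher (0.71%). Among list members counted higher they occur in 2 of 6 (33.33%), near the share of the whole list. The letters and genes were picked with NF-kappaB in mind, and the matches are all related CXC chemokines. The list share therefore tells nothing about the rise. The list members with the letters include both genes that rose and genes that did not, and a match of letters does not show binding. The separate list of NF-kappaB pathway genes had 0 counted of 24, with 1 that rose (TNFRSF21) and a median of 0.008.

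The few TGF-beta and BMP genes that passed the test rose. Of 40 tested genes 3 were counted higher and 0 lower (7.50%). By limma 6 rose and 0 fell, against 3.91% and 3.44% over all genes, and the median was 0.228. INHBA, which encodes the activin A subunit, read 12036 and 12115 against 2342 in GS672.Ug, with 3426 and 2643 in TEM4-18 (2.34 ± 0.17, adjusted p = 7.17e-04). GDF15, a stress-induced member of the family, read 1391 and 1568 against 282.2 (adjusted p = 0.0379). GREM1, a secreted BMP antagonist, read 978.3 and 770.6 against 166.1, beside 701.0 and 765.4 in TEM4-18. TGFB1 read 6113 and 6470 against 4028, and its receptor TGFBR1 read 3469 and 3733 against 1857, and both rose. Genes known to respond to the pathway went both ways in other lists, as TGFBI (1778 and 1020 against 180.5) and PMEPA1 (1301 and 1352 against 350.7) rose, FN1 fell (below), and ACTA2 had a difference of -0.76 (adjusted p = 0.273). The immediate targets ID1, ID2 and ID3 did not pass the test, with differences of 0.16, 0.30 and 0.33. INHBB, the other activin subunit, read 45518 and 55225 against 69980 (adjusted p = 0.0694).

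Matrix genes went both ways. Of 37 genes for collagens, laminins and matrix glycoproteins, 3 were counted higher and 1 lower (10.8%), 5 rose and 3 fell, and the medians were 0.305 in GS689.Li and 0.021 in GS694.LAd. The basement membrane chains COL4A5 and COL4A6, which lie next to each other on the X chromosome, rose, with COL4A6 at 2837 and 3991 against 1363, though its other probe sets had smaller differences of 0.02 and 0.31. FN1, fibronectin, read 14428 and 14144 against 32549 and fell by 1.19 (adjusted p = 0.00275). COL12A1 and COL6A1 fell by 0.82 and 0.62. DCN was counted higher at 344.2 and 312.6 against 102.3, with 318.7 and 105.5 between the duplicates (adjusted p = 0.248). Of 32 genes for plasminogen, matrix proteases and their inhibitors, CTSB alone was counted (median 0.074). Of 15 integrins, ITGA10 rose and was counted higher, and ITGA7 was counted lower (adjusted p = 0.126), with a median of 0.186. Of 24 SRC family kinases and adhesion adaptors, NEDD9 rose and TNS4 fell (187.7 and 403.4 against 3349). PXN and PARVA rose by less, and the median was 0.102. The other probe sets of NEDD9 over the filter had smaller differences of -0.22, 0.00 and 0.51.

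Junction genes differed in both directions. Of 28 genes for epithelial junctions 2 were counted higher and 3 lower (17.9%), 2 rose and 6 fell, and the medians were -0.075 in GS689.Li and -0.30 in GS694.LAd. EPCAM read 2095 and 1147 against 4626 in GS672.Ug, CLDN4 read 3123 and 2619 against 6551, and CLDN11 read 5793 and 3416 against 12064. CLDN3, CLDN12 and MAL2 fell too. OCLN, a tight junction strand protein, rose at 1796 and 1844 against 779.3, and CGN, which binds the strands from inside the cell, rose at 423.0 and 599.8 against 53.3. The other probe sets of OCLN over the filter had smaller differences of 0.25, 0.30 and 0.46. For EPCAM and CLDN4 the TEM4-18 arrays (1544 and 1674 for EPCAM) lay with the passaged lines. Of 7 tested keratins 0 were counted, KRT19 fell by 0.59 (adjusted p = 0.0187) and the median was -0.198. Of 20 mesenchymal genes S100A4 was counted higher (25625 and 22364 against 9506), TWIST2 and NT5E rose as well, 0 fell, and the median was 0.231. ZEB1, a repressor of epithelial genes, read 6145 and 5898 against 6738 (adjusted p = 0.462), and VIM read 73755 and 80187 against 76215.

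Growth factor genes went both ways. Of 63 receptor kinases and ligands 2 were counted higher and 3 lower (7.94%), 4 rose and 5 fell, and the median was 0.016. IGFBP5 and IGFBP4, which bind insulin-like growth factors, rose, with IGFBP5 at 5271 and 4581 against 632.1 (2.87 ± 0.17, adjusted p = 5.69e-04). IGFBP3 fell, at 13759 and 17499 against 26298. PDGFRA, a receptor of platelet-derived growth factors, read 946.5 and 643.2 against 6026 and fell by 2.88 (adjusted p = 0.00219), with 498.8 and 432.6 in TEM4-18. FGFR4 fell and FGF2 was counted lower (adjusted p = 0.0950), and EGFR and IGF1R rose by less than 2-fold. The other probe sets of FGFR4 over the filter had smaller differences of -0.01 and 0.00. Of 36 WNT genes 3 were counted each way (16.7%), 2 rose and 3 fell, with a median of 0.140. SFRP1, a secreted WNT inhibitor, fell at 192.5 and 194.1 against 1951, and LGR5, an R-spondin receptor, fell at 116.3 and 106.4 against 631.4, where TEM4-18 was higher still at 1691 and 1718. TLE2 and FZD2 rose. LEF1 was counted lower at 143.2 and 198.6 against 752.2 (adjusted p = 0.0665). Of 18 Notch genes 0 were counted, JAG1 and HEY1 rose and the median was -0.014. Of 26 AP-1 and immediate early genes SPRY1 was counted lower (951.0 and 1191 against 3790), 4 rose, 1 fell and the median was -0.024.

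Among metabolic genes few were counted. Of 34 hypoxia and glycolysis genes 2 were counted higher and 0 lower (5.88%), 4 rose and 1 fell, with a median of 0.038. PFKP, the platelet-type phosphofructokinase, read 22221 and 21107 against 6838 (adjusted p = 7.01e-04), and PFKFB3, which makes its activator fructose 2,6-bisphosphate, read 4673 and 3952 against 1404. ENO2 fell, and LDHA read 75626 and 91125 against 90708. Of 30 genes for xenobiotic, aldo-keto and glutathione metabolism 3 were counted higher (10.0%), 5 rose and 3 fell, with a median of 0.048. AKR1C1 and AKR1C2, aldo-keto reductases of steroid metabolism, read 5391 and 6069 against 1707 and 3910 and 4223 against 691.3, and both rose. AKR1C3, which makes testosterone, read 11807 and 15867 against 5922 and also rose, while both TEM4-18 arrays held all 3 genes below those 3 arrays (469.3 and 459.7 for AKR1C1). These genes are near-identical copies, so the probe sets may share signal. Oxidative phosphorylation had 0 counted of 40, 1 that fell (ATP5PO) and a median of -0.119. Ribosomal proteins had 0 counted and 0 past the test of 41, with a median of -0.061. Of 25 cholesterol and fatty acid genes 0 were counted, IDI1 rose, STARD4 fell and the median was -0.018. Of 38 unfolded protein and amino acid stress genes CHAC1 and CBS were counted higher (adjusted p = 0.104 and 0.245), CANX rose, PSAT1 and CTH fell and the median was -0.002. Of 17 metallothioneins and zinc transporters 0 were counted, SLC30A5 rose, SLC39A8 and SLC39A14 fell and the median was -0.157.

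Immune genes did not move together. Of 38 interferon response genes 3 were counted higher and 1 lower (10.5%), 2 rose and 1 fell, and the median was -0.259. IRF9, a subunit of the interferon-activated ISGF3 factor, read 3603 and 3584 against 1341 (adjusted p = 0.00672) and GBP2 rose too, while UBE2L6, which transfers ISG15 to its targets, fell at 2439 and 2312 against 5487. The other probe set of GBP2 over the filter had a smaller difference of -0.67, on the opposite side. IFI27 was counted higher (adjusted p = 0.147). ISG15 itself read 21831 and 29782 against 31757, and MX1 read 978.9 and 1010 against 1753 (adjusted p = 0.0790). Of 18 antigen presentation genes PSMB8 was counted lower, HLA-F and HLA-G rose, TAP2 and PSMB8 fell, and the median was -0.149. The HLA genes are close paralogues, and the direction of this list's median turned without the probe sets marked _x_at or _s_at.

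Neural and lineage lists were small or mixed. Of 38 genes for semaphorins, axon guidance and neural adhesion 2 were counted higher and 3 lower (13.2%), 4 rose and 4 fell, with a median of 0.081, and CNTN1 and NLGN4X (above) lead it. NEO1 was counted lower and UNC5D and NCAM1 higher without passing the test (adjusted p = 0.0719, 0.236 and 0.117). SLIT2 and SEMA3F, secreted guidance cues, fell, and ROBO1 and ROBO3, of the roundabout receptor family, rose. Of 14 neuroendocrine and neuronal genes NPY was counted higher, STMN3 rose, ENO2 fell and the median was 0.162. Of 17 prostate luminal and androgen-regulated genes PMEPA1 rose, TMPRSS2 fell (446.2 and 471.3 against 1193) and the median was 0.114. Of 12 basal and stem genes SOX4 rose (15720 and 18035 against 7152), LGR5 fell, SOX2 was counted lower at 88.2 and 129.1 against 321.3, NES rose and the median was 0.058. Of 19 S100 proteins and annexins S100A4 was counted, S100A13 rose, ANXA3 fell and the median was 0.200. Of 18 mucins and secretory genes MUC6 and TFF2 were counted higher (adjusted p = 0.130 and 0.0557), with a median of 0.193. Of 30 calcium and potassium channels and transporters KCNQ1 and KCNAB1 were counted lower (adjusted p = 0.177 and 0.120), ATP2B4 rose, KCNK1 fell and the median was 0.096. Of 21 HOX genes HOXB4 was counted higher (adjusted p = 0.228), with a median of 0.036, and of 7 cancer-testis antigens 0 were counted, with a median of 0.104.

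Cell cycle and replication genes showed small differences. Of 60 tested, 0 were counted, 3 rose and 4 fell, and the median was 0.035. The replication genes CDT1, MCM2, MCM6 and RRM2 fell, with MCM2 at 7293 and 6960 against 11481. The mitotic genes CCNB1 and KIF20A and the G1 cyclin gene CCND3 rose, with CCNB1 at 21104 and 24390 against 15750. MKI67 read 5442 and 5023 against 4169 (adjusted p = 0.161).

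**Figure D4:**
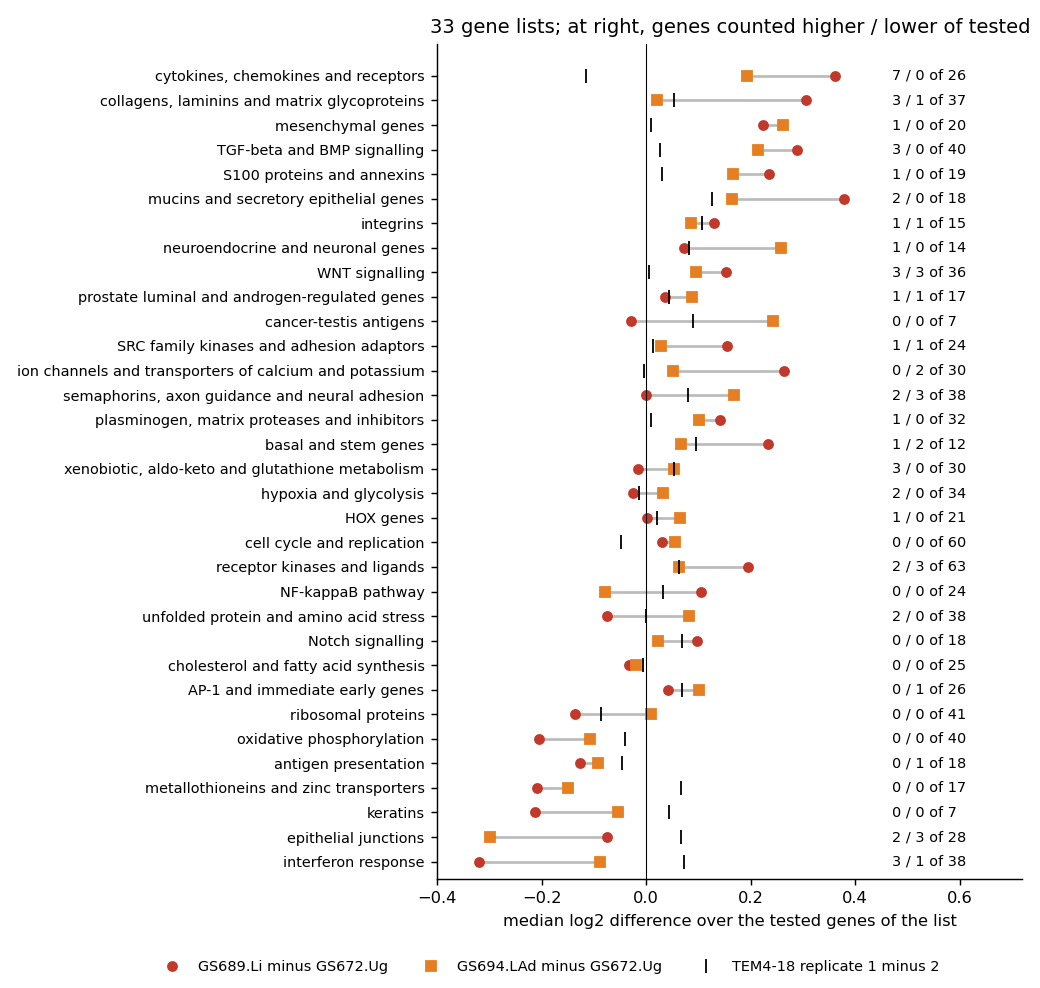
Median log2 difference from GS672.Ug over the tested genes of each of 33 lists, for GS689.Li (circles) and GS694.LAd (squares), with the duplicate difference as ticks; the numbers at right are genes counted higher and lower of those tested. Lists run from top to bottom by the median of the mean of both lines; cytokines come first with 7 of 26 counted higher, although mucins are higher in GS689.Li and mesenchymal genes in GS694.LAd, and 9 lists have no counted gene.

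Markers of other cells were read, since the lines came from organs of mice. The probe sets and the listed markers are human, so these values cannot show or exclude carried-over mouse cells. PC-3 identity genes were strong in all arrays: of 9 tested, 0 were counted, EGFR rose, KRT19 fell, and their summed intensity was 272426 and 290755 against 286981 in GS672.Ug. ALB, which defines hepatocytes, read 147.1 and 26.6 against 31.2. Of 6 hepatocyte markers over the filter, all above 0 with a median difference of 1.04, APOA1 and TAT were counted higher (336.0 and 147.7 against 30.6 for APOA1) and 0 passed the test, and the sum over 13 was 4885 and 6238 against 4015. The kidney tubule list had 0 counted of 6, with 5 above 0 and a median of 0.69 (sum 5034 and 4631 against 2933, mostly PAX8). Both medians are above those of the 33 gene lists, on few and mostly weak genes. The adrenal cortex list had 0 of 2 (sum 1207 and 1109 against 1058, with STAR at 14.9 and 29.9 against 108.2). The lung epithelium list had 0 of 3 (2537 and 1775 against 1989). Of 4 endothelial markers ESAM rose, at 2489 and 1285 against 264.4, while the defining CDH5 read 7.0 and 5.3 against 17.2 (sum 12730 and 10498 against 10243). Among leukocyte markers 1 of 3 was counted, ITGAM (sum 1047 and 1386 against 1031), and among erythroid markers 1 of 3, SLC4A1 (1411 and 883 against 738). The fibroblast list had PDGFRA lower and DCN higher of 6 (14353 and 16234 against 23582). Of 3 urothelial markers GATA3 fell, at 694.2 and 457.6 against 2053, while the uroplakin UPK2 read 203.5 and 118.7 against 209.9 (sum 11021 and 11853 against 9431). The part of these markers in the results was not tested. In bulk RNA fewer cells of a kind and less RNA per cell cannot be told apart.

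Part of the genes that differed lay in runs along chromosomes, and most lay outside them. The 13603 genes with a RefSeq position were cut into 340 blocks of about 40 neighbours. A block was marked when the medians of both GS689.Li and GS694.LAd lay, on one side, farther from the all-gene median than any block of the duplicates did (0.233). There were 45 such blocks, 28 higher and 17 lower. Between GS689.Li and GS694.LAd themselves the farthest block lay 0.401 away. The blocks were marked on these same differences, so a lean to the marked side in their genes follows from that choice. In the 28 higher blocks 919 of 1128 genes lay above 0, 210 rose and 11 fell. In the 17 lower blocks 140 of 680 lay above 0, 7 rose and 128 fell. By size, 75 genes were counted higher and 7 lower in the higher blocks (7.27%), and 14 higher and 21 lower in the lower blocks (5.15%), against 4.13% over all genes. The share in the lower blocks is near that of all genes, and the runs are made mostly of differences under 2-fold.

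In the block medians of chromosomes 5, 7, 8, 10 and 21 the passaged lines departed from both other cultures. On chromosome 5, 7 of 15 blocks were higher, with medians from 0.275 to 0.714, while TEM4-18 minus GS672.Ug was between -0.077 and -0.020 in them. The block from SPEF2 to MRPS30 had the highest median of all, with 38 of 40 genes above 0. It holds NNT, the mitochondrial transhydrogenase (3149 and 2935 against 1193), and IL7R. SRD5A1, a steroid 5-alpha-reductase, and OTULINL rose nearby. On chromosome 7 the first 5 of 16 blocks were higher (0.271 to 0.381, TEM4-18 minus GS672.Ug -0.066 to 0.034), with IGF2BP3, an RNA-binding protein of growth (9789 and 15320 against 2435), and INHBA among the genes that rose. FAM20C, a secretory pathway kinase of the same run, rose at 3054 and 4170 against 632.2, while TEM4-18 read 4448 and 4350, beside the passaged lines. The first block of chromosome 8, from FBXO25 to MTUS1, had a median of 0.549 and holds CTSB, ANGPT2 and NEIL2. The first block of chromosome 10, from ZMYND11 to CELF2, had a median of 0.519 with 14 of 40 genes counted higher and 18 that rose, among them NET1 (28293 and 26792 against 6622), FBH1, AKR1C2 and PFKP. Chromosome 21 went the other way, with 2 of 4 blocks lower (-0.469 and -0.376). There IFNAR2, a chain of the type I interferon receptor, fell at 1879 and 2251 against 3958, and CXADR, a junction protein and virus receptor, fell at 42.5 and 343.5 against 2529, with 384.0 and 299.8 in TEM4-18.

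In the marked blocks of chromosomes 6, 15 and 17 GS672.Ug stood apart from the passaged lines and TEM4-18 alike. On chromosome 6, 9 of 18 blocks were higher, all within the first 10, with medians from 0.317 to 0.634, and TEM4-18 minus GS672.Ug was between 0.197 and 0.494 there. Genes that rose in them include BAK1, a pro-apoptotic BCL2 family member (3039 and 2894 against 1246, TEM4-18 2418 and 2137), PBX2, PPP1R18 and IER3. PSMB8 lies in one of these runs and fell. On chromosome 17, 6 of 20 blocks were lower (-0.360 to -0.282, TEM4-18 minus GS672.Ug -0.477 to -0.211). RAD51C, a DNA repair gene, fell there at 5131 and 5718 against 10002, as did TSR1 and UTP18, which act in ribosome assembly. The first 3 blocks of chromosome 15 were lower in the same way (-0.269 to -0.231). Chromosome 14 held both kinds of run, 3 blocks lower (-0.399 to -0.291) and 3 higher (0.30 to 0.33). In the lower blocks TEM4-18 lay above GS672.Ug, by 0.259 to 0.894, and in the higher blocks it lay below (TEM4-18 minus GS672.Ug -0.478 to -0.390), so GS672.Ug was between the passaged lines and TEM4-18 in both. L3HYPDH, a hydroxyproline dehydratase, read 1595 and 1857 in the passaged lines, 6493 in GS672.Ug and 20822 and 22527 in TEM4-18. The remaining marked blocks were 1 lower and 1 higher on chromosome 3, 1 lower on 9, where CD274 (the checkpoint ligand PD-L1, 711.6 and 614.9 against 3315) and SMARCA2 fell, 1 lower on 11 and 1 higher on 19. By block median, TEM4-18 lay nearer GS672.Ug on 9 and 11 (TEM4-18 minus GS672.Ug -0.118 and -0.128, TEM4-18 minus the passaged lines 0.359 and 0.206). On 3 it lay nearer the passaged lines, and on 19 midway. DNA copy number was not measured here.

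**Figure D5:**
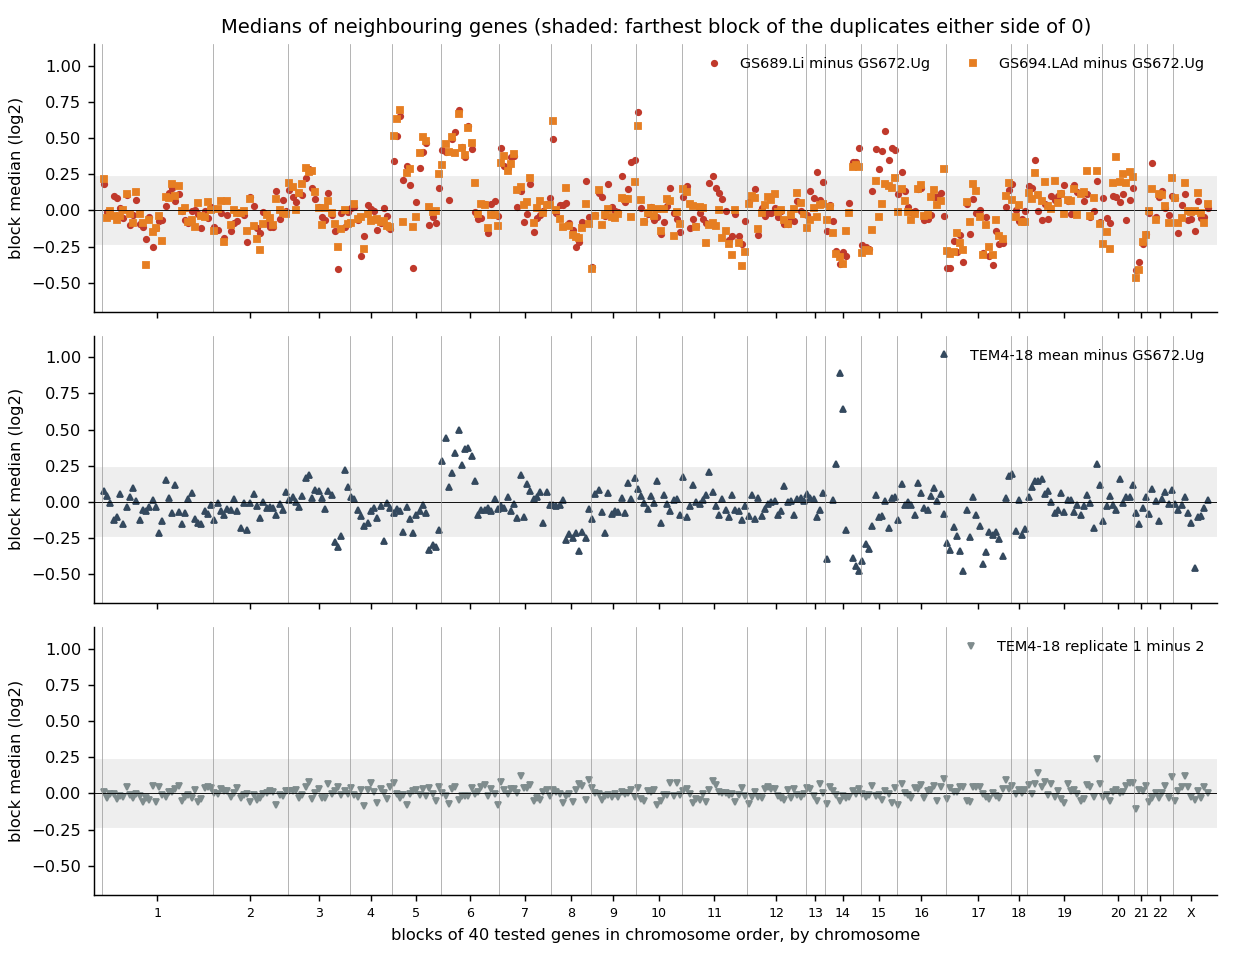
Each point is the median log2 difference of a block of about 40 neighbouring genes, by chromosome in gene order. The top panel shows GS689.Li and GS694.LAd minus GS672.Ug, the middle panel the TEM4-18 mean minus GS672.Ug and the bottom panel the duplicates, with shading at 0.233 either side of 0. The start of chromosome 5 is raised in the top panel and near 0 in the middle one, and the start of chromosome 6 is raised in both.

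A second probe set gives a partial check of the counted genes within the same arrays. Of 185 counted genes with another probe set over the filter, 93 had one that was counted the same way. The rest, with none that was, include OCLN, FGFR4, NEDD9, GBP2, COL4A6, TLE2, PFKP, CXCL12 and CD274. Of 5096 probe sets over the filter with no gene symbol, 145 were higher and 101 lower by the same rule (4.83%). GS689.Li and GS694.LAd themselves lay 2-fold apart for 37 of the 564 counted genes (6.56%), among them KISS1, CXADR and UCA1.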

How the data were processed

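Expression was measured on Affymetrix arrays of human probe sets, 1 array per culture apart from the TEM4-18 duplicates. The values are linear intensity values made with MAS5, per the submitters' processing notes and the deposited table, and each array's trimmed mean was 1499.8. Of 54675 probe sets, 62 controls were dropped and 41097 carried 1 symbol, updated through the gene ID to RefSeq (GRCh38.p14). Before taking log2, 46.942 was added to each value, which is the 20th percentile over the table. Probe sets with a mean under 160.67, the 40th percentile, were left out, and the probe set of highest mean stood for its gene.

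Counting by size used no p-value. The test was limma 3.58.1 in R 4.3.3 with an intensity trend and Benjamini-Hochberg adjustment, on 5 arrays. The p-values measure the spread within both pairs of arrays. The labels do not say whether the TEM4-18 arrays are separate cultures, so the spread of that pair may be technical. GS689.Li and GS694.LAd differ in line and organ, so the spread of that pair holds those differences too. The number of arrays limits the precision. On simulated data for this comparison (13640 genes), limma recovered 32, 47, 43 and 46 of 50 genes each at log2 changes of 1, 2, 3 and 4, with 3 false calls. The simulated spread was normal, was set by signal level, and was the same for GS672.Ug as for the other arrays. Those are assumptions of the test itself, so the simulation does not give the error rate on the real arrays.

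The members and lists were chosen with earlier results of these data known. Named genes are the 10 largest differences each way beyond the duplicate gap, 5 each way by the side of TEM4-18, up to 4 per list, the 5 each way of lowest limma p and up to 3 per marked block. Other list members were named after their values were seen. Python 3.11.15 with pandas 2.3.3, numpy 2.4.6 and matplotlib 3.10.9 was used.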

Additional observations from a re-analysis of the deposited data

How the results depend on the processing

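Counts by size depend on how weak genes are treated. The 564 genes became 235 with the table's median as offset (129 higher and 106 lower, 54.9% higher instead of 66.8%), 1193 with no signal filter, 242 with a filter at the 60th percentile, 1777 at 1.5-fold, 184 at 3-fold and 122 in the upper 3 of 5 signal bins, the last chosen after seeing the data. With GS689.Li or GS694.LAd left out the count was 1083 to 1161. The count beyond the duplicate gap (531) was 235 with the median offset, 1065 with no filter, 241 at the 60th percentile, and 1022 to 1096 with 1 passaged line left out. The limma count of 1002 was 464 with no filter, 629 without probe sets marked _x_at or _s_at, 2407 with the spread of the TEM4-18 duplicates alone, 35 with all 7 arrays, 0 without the trend (2616 at an unadjusted p under 0.05), and 398 to 1943 with 1 array left out (398 and 400 without a TEM4-18 array, 1905 without GS689.Li, 1943 without GS694.LAd). Median centring gave 406 rises and 554 falls (42.3% higher instead of 53.2%) and moved the all-gene median from 0.009 to -0.044. The share of higher genes with TEM4-18 nearer GS672.Ug (55.2%) was 49.9% without an offset, 72.1% with the median offset, 60.7% at the 60th percentile, 62.7% with the filter on the 3 compared arrays, 46.8% after median centring and 48.9% after quantile normalization. That of lower genes (38.5%) was 29.9% with no filter, 30.9% with the 3-array filter, 46.3% after median centring and 48.9% to 53.2% with 1 passaged line left out. The 45 marked blocks were 14 with no filter, 79 at the 60th percentile and 68 with either passaged line left out, and 0 of the block medians changed sign in 495 comparisons.

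Single values that changed sign were IGHM (0.78 with the 3-array filter and without _x_at or _s_at probe sets), KRT7 (0.07 with probe sets averaged, 0.39 without _x_at or _s_at), KRT8 (-0.05 without GS689.Li) and SEMA6B (-0.03 with probe sets averaged). List medians that changed sign were antigen presentation (0.089 without _x_at or _s_at), neuroendocrine genes (-0.175 at the 60th percentile and without _x_at or _s_at), prostate luminal genes (-0.036 at the 60th percentile) and cancer-testis antigens (-0.029 without GS694.LAd). The cause was not tested. Of 166 limma calls among 278 named genes, 124 were kept without either TEM4-18 array, 158 after median centring, 164 after quantile normalization and 21 with all 7 arrays. Signal limits the weak genes, where the duplicates differ most. No paired analysis was possible, because GS672.Ug has 1 array and the labels mark no pairs.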
